A study of Mus musculus with 8 samples.

Results

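Interferon-stimulated genes were followed in tumors of 4 mouse models of endometrial cancer. They were 37 genes, chosen by symbol from a list of known interferon-stimulated genes, out of 24419 gene symbols in the count table. The choice was made with earlier results of these data known, so shares of the members beside shares of all genes only describe the list. All 37 were among the 15875 genes whose counts were high enough to be tested. The members were the cytoplasmic nucleic acid sensors Ddx58, Ifih1, Dhx58, Zbp1 and Eif2ak2, the transcription factors Stat2, Irf9, Irf7 and Irf1, the ISG15 pathway genes Isg15, Usp18, Herc6 and Trim25, and the antiviral effectors of the IFIT, OAS, Mx, guanylate-binding, ADP-ribosylation and other families.

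The 4 models grew from uterus organoids of female CAG-Cas9-EGFP mice aged 8 to 10 weeks, which express Cas9 and EGFP from a ubiquitous promoter. The organoids were edited in culture and transplanted into the left uterus of female BALB/cA nude mice aged 8 weeks, which lack T cells but keep B cells, natural killer cells and myeloid cells. TPM carried edits that include an sgRNA against Trp53, together with Myc overexpression. TPMCa carried the edits of TPM and a Pik3ca E545K cDNA delivered by retrovirus. TPMR1 carried the edits of TPM and an sgRNA against Pik3r1. TPK carried edits that include an sgRNA against Trp53, without Myc overexpression. Each model had 2 libraries of polyA RNA, 8 in all, with between 15748396 and 26943611 counts each. The labels name the material tumor organoids. The study's methods instead state that RNA came from tumors collected some 2 months after the organoids were transplanted, and the study counts 2 mice per model.

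Interferons are secreted proteins that cells release when they sense foreign or misplaced nucleic acid. Type I interferons act through the IFNAR1 and IFNAR2 receptor, type III interferons through IFNLR1 and IL10RB, and both signal through JAK kinases to the complex ISGF3, which contains STAT2 and IRF9 and binds the interferon-stimulated response element (ISRE). Interferon gamma acts through a receptor of its own, and its signal reaches genes with a gamma-activated site (GAS). In the uterus, interferon epsilon is known to be made constitutively by the epithelium.

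Sequence before the start site was read for the members that carry the results. RefSeq promoter windows on GRCm38.p6, from 250 bases before to 50 bases after the start site, were matched by symbol to 28 of the 37 members, in 32 windows. Both strands were searched for short motifs, the ISRE core GAAANNGAAA and the GAS core TTCNNNGAA, and matches were allowed to overlap. The ISRE core stood in a window of 15 of the 28 members, or 53.6%, against 3.99% of 27025 genes with a window. The GAS core stood in 8 of the 28, or 28.6%, against 9.55%. A match describes the letters and does not show binding. The stretches shown here hold the ISRE core, or in Irf1 the GAS core, and end before the start site. Capitals mark the ISRE matches, and in Irf1 the GAS match. In Ifit1 and Ifit3 the ISRE core lies on the opposite strand and reads as its reverse complement. The sequences read 5′ to 3′ in the direction of the gene. Isg15 lies at chr4:156200845-156200914 (minus strand), Ifit1 at chr19:34640774-34640843 (plus), Ifit3 at chr19:34583377-34583446 (plus), Oas3 at chr5:120777695-120777764 (minus), Bst2 at chr8:71537557-71537626 (minus) and Irf1 at chr11:53769894-53769962 (plus).
Isg15: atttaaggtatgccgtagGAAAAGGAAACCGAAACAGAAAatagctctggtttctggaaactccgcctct
Ifit1: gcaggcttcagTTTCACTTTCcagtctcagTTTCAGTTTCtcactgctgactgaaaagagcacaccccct
Ifit3: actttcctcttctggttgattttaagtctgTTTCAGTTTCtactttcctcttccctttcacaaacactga
Oas3: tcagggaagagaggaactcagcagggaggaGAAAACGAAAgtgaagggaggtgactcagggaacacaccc
Bst2: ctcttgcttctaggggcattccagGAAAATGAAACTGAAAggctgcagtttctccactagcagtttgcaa
Irf1: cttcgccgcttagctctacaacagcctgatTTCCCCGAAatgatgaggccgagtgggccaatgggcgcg

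Isg15, Ifit1, Ifit3 and Oas3 are shown as members that fell in TPMCa or TPMR1 against TPM and held an ISRE core. Bst2 and Irf1 are shown because their levels stood apart from that fall. Of the other members that fell, Gbp2 held an ISRE core, Oasl1 and Dtx3l held neither motif, and Mx1 and Rtp4 had no window. Isg15 held 3 overlapping cores starting between 66 and 78 bases before its start site. Ifit1 held 2 cores that did not overlap, 85 and 104 bases before it. Ifit3 also held 2, at 122 and 156 bases, and the stretch shown holds the nearer one whole. In Bst2 the 2 ISRE cores overlapped each other, and a GAS core overlapped one of them. Irf1 held a GAS core 90 bases before its start site and no ISRE core in its window. Irf9, Irf7, Herc6, Trim25, Oasl1, Oasl2, Dtx3l, Cmpk2, Xaf1 and Ifi44 held neither motif in their windows. Dhx58, Zbp1, Usp18, Oas2, Mx1, Mx2, Parp9, Parp14 and Rtp4 had no window in the table.

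Levels of the interferon-stimulated genes were high in TPM and TPK and low in TPMCa and TPMR1. Their CPM (counts scaled to library size by the TMM method) summed to 4189 and 3380 in the 2 TPM libraries and to 7424 and 8296 in TPK. TPMCa libraries summed to 630 and 1016 CPM, and TPMR1 libraries to 1400 and 749. Every TPM and TPK library lay above every TPMCa and TPMR1 library, and TPK above TPM, while TPMCa and TPMR1 overlapped. TPK had the highest mean level for 37 of the 37 members, and the lowest mean lay in TPMCa for 26 and in TPMR1 for 11. For 34 of the 37, every TPM and TPK library lay above every TPMCa and TPMR1 library, against 14.8% of all genes tested. The exceptions were Dhx58, Irf1 and Bst2. In bulk tissue, fewer cells that express a gene and less RNA per cell cannot be told apart.

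Summed epithelial markers split between the same models as these genes, but ran in the opposite order within TPMCa and within TPMR1. The summed CPM of 6 epithelial markers was between 2941 and 5498 in TPM and TPK and between 6.47 and 73.3 in TPMCa and TPMR1. In replicates 1 and 2 it was 73.3 and 23.7 in TPMCa, where the members summed to 630 and 1016. In TPMR1 it was 6.47 and 27.4, where the members summed to 1400 and 749. TPM (5498 and 2941) and TPK (3236 and 4963) overlapped in this sum, although the members were higher in TPK. For 3 squamous markers (Krt5, Krt14 and Trp63) the ranges were 2935 to 14106 and 1.24 to 11.5, with Krt5 at 0 counts in both TPMR1 libraries. Epcam and Cdh1, which define epithelium, stood at 6.97 CPM or less in every TPMCa and TPMR1 library and at 313 CPM or more in every TPM and TPK library. Within TPMR1, Epcam did not follow the order of the sum, with 21 and 7 counts in replicates 1 and 2. Cdh1 followed it, with 7 and 9 counts. The part of the epithelial difference between the models in the levels of the interferon-stimulated genes was not tested.

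**Figure D1:**
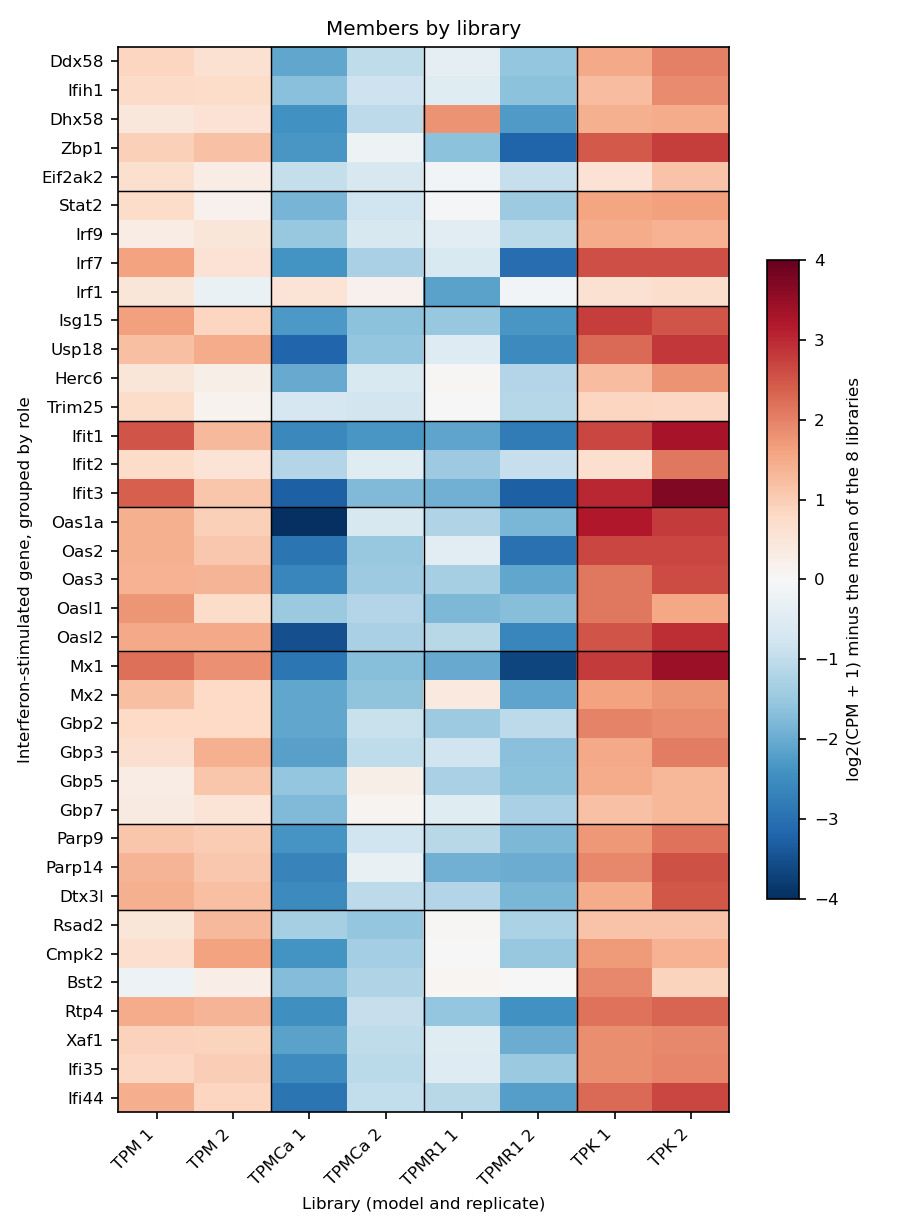
Level of each of the 37 interferon-stimulated genes (rows, grouped by role) in each of the 8 libraries (columns), as log2(CPM + 1) minus the gene's mean over the libraries; red is above and blue below that mean. The TPM and TPK columns are above the mean for most genes and the TPMCa and TPMR1 columns below it, with exceptions such as Dhx58 in TPMR1 replicate 1 and Irf1 in TPMCa.

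Differences were tested with edgeR's quasi-likelihood test over all genes, and a gene is said to have risen or fallen at an adjusted p under 0.05. In TPMCa against TPM, 6 of the 37 members fell (Isg15, Ifit1, Oas3, Oasl1, Gbp2 and Rtp4), against 3.02% of all genes that fell. In TPMR1 against TPM, 9 fell (Isg15, Ifit1, Ifit3, Oas3, Oasl1, Mx1, Gbp2, Dtx3l and Rtp4), against 4.5%. No member rose in TPMCa or TPMR1, where 0.466% and 1.08% of all genes rose, and none was higher even at an unadjusted p under 0.05 or in DESeq2. The median log2 difference of the 37 was -2.52 in TPMCa and -2.34 in TPMR1, against medians over all genes of -0.01 and 0.03. At the study's thresholds, an unadjusted p under 0.05 and a log2 difference beyond 1, 31 members were lower in TPMCa, against 11.7% of all genes, and 27 in TPMR1, against 12.6%. Both comparisons share the TPM libraries.

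The counts of calls moved with the libraries in the fit, as did the share of all genes called in either direction. In TPMCa against TPM that share was 3.48% with all libraries. Without TPMCa replicate 1 no member and 0.226% of all genes were called, and without TPMR1 replicate 1 there were 27 members and 9.86% of all genes. In TPMR1 against TPM the share was 5.58% with all libraries. The count went from 1 member and 0.98% of all genes without TPM replicate 1 to 14 members and 3.87% without TPMCa replicate 2. A fit of TPMR1 and TPM alone called none of the 9 members and 0.353% of all genes, and a replicate block left 4 members and 3.51%. Ifit1 in TPMR1 was the only one of these calls that held in each of the 8 fits that leave out 1 library, and none held in all of them for TPMCa. The sign of the difference from TPM was the same in all 8 fits for 36 of the 37 members in TPMCa and for 35 in TPMR1. A permutation test of a single gene with 2 libraries against 2 cannot reach a p under 0.05, so none was run.

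**Figure D2:**
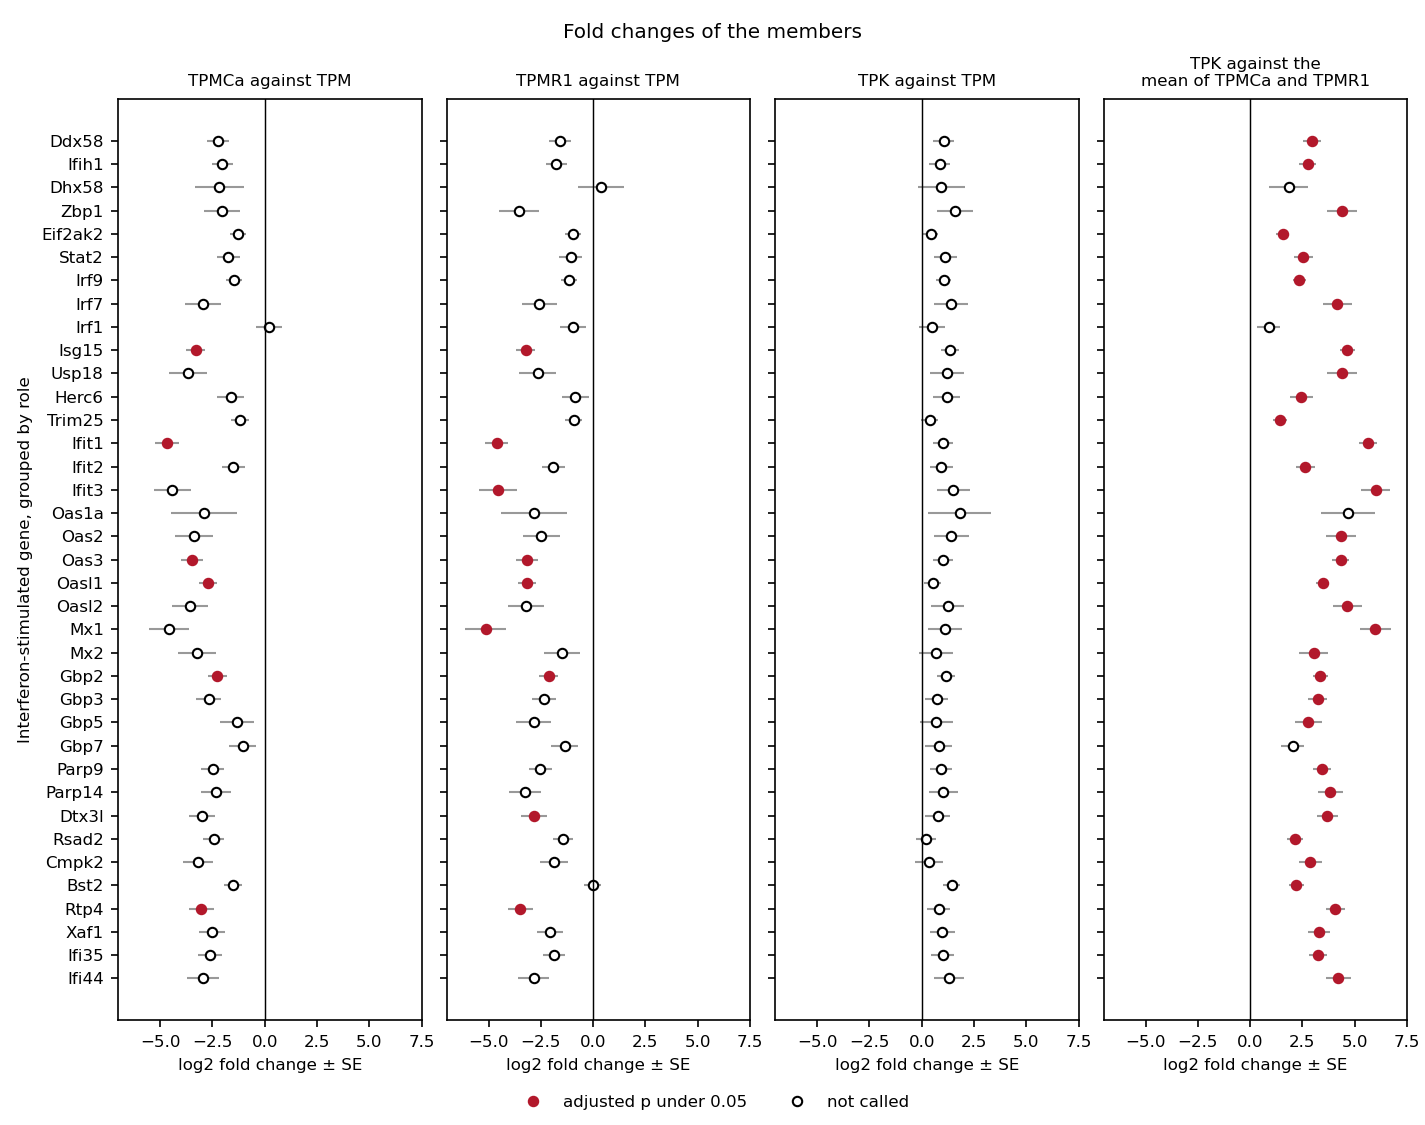
Log2 fold change with its standard error for each interferon-stimulated gene (rows, grouped by role) in 4 comparisons from edgeR; filled red points have an adjusted p under 0.05 and open points do not. Most points lie below 0 in TPMCa and TPMR1 against TPM, all 37 lie above 0 in TPK against TPM with none called, and 33 are called higher in TPK against the mean of TPMCa and TPMR1.

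The IFIT genes lie side by side on chromosome 19 and showed some of the largest differences. The protein of Ifit1 binds viral RNA lacking host cap marks and blocks its translation. Ifit1 (chr19:34640871-34650009) stood at 247 and 105 CPM in TPM, 6.21 and 7.62 in TPMCa, 9.02 and 5.28 in TPMR1 and 277 and 428 in TPK. Its TPMCa and TPMR1 libraries lay below 10 CPM, far under every TPM library. The log2 difference from TPM was -4.67 ± 0.56 in TPMCa (adjusted p = 0.0128) and -4.62 ± 0.56 in TPMR1 (adjusted p = 0.0102), or 25.4-fold and 24.5-fold lower. Ifit3 (chr19:34583531-34588731) stood at 192 and 78.2 CPM in TPM, 2.79 and 9.79 in TPMCa, 8.63 and 2.78 in TPMR1 and 296 and 475 in TPK. Its difference was -4.42 ± 0.89 in TPMCa (adjusted p = 0.0501) and -4.56 ± 0.89 in TPMR1 (adjusted p = 0.0367), so that it fell in TPMR1 and missed the threshold in TPMCa. The table lists a close copy, Ifit3b, with which reads may be shared. Ifit2 differed less, with fitted values of -1.49 in TPMCa and -1.90 in TPMR1, neither called. Against the mean of TPMCa and TPMR1, all 3 IFIT genes rose in TPK, Ifit3 by 6.0 ± 0.71 (adjusted p = 0.00409).

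The ISG15 pathway centers on Isg15 (chr4:156199424-156200818), a ubiquitin-like protein that is joined to other proteins and also secreted. It stood at 182 and 105 CPM in TPM, 11.1 and 17.9 in TPMCa, 19.6 and 10.8 in TPMR1 and 405 and 341 in TPK. Every TPM and TPK library lay above every TPMCa and TPMR1 library, while TPMCa and TPMR1 overlapped. The difference from TPM was -3.31 ± 0.46 in TPMCa (adjusted p = 0.019) and -3.23 ± 0.46 in TPMR1 (adjusted p = 0.0168). In TPK against the mean of TPMCa and TPMR1 it rose by 4.65 ± 0.37 (adjusted p = 0.00118). Usp18 removes ISG15 and dampens receptor signaling, Herc6 is the main ligase for ISG15 in mice, and Trim25 is a ubiquitin ligase linked to the sensor RIG-I. None of these passed the test against TPM, with fitted log2 values from -3.69 to -0.87 over both comparisons, and all of them rose in TPK against the mean of TPMCa and TPMR1.

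OAS enzymes make the short oligoadenylates that switch on RNase L, and the 5 members of the family lie on chromosome 5. Oas3 stood at 87.6 and 85.1 CPM in TPM, 4.43 and 11.2 in TPMCa, 12.4 and 6.84 in TPMR1 and 143 and 204 in TPK. Oasl1, which lacks the enzymatic activity and restrains Irf7 translation, stood at 183 and 89.6 CPM in TPM, 18.2 and 23.2 in TPMCa, 14.5 and 15.7 in TPMR1 and 232 and 158 in TPK. For both genes each TPM library was several times above each TPMCa and TPMR1 library. The difference from TPM was -3.46 ± 0.54 in TPMCa (adjusted p = 0.025) and -3.17 ± 0.53 in TPMR1 (adjusted p = 0.0257) for Oas3. For Oasl1 it was -2.72 ± 0.41 in TPMCa (adjusted p = 0.0247) and -3.17 ± 0.42 in TPMR1 (adjusted p = 0.014). Oasl2 (227 and 226 CPM in TPM, 6.02 and 31.8 in TPMCa, 36.3 and 12 in TPMR1 and 452 and 620.1 in TPK) had fitted differences of -3.58 and -3.23 that were not called. Oas1a stood at 71.2 and 51.3 CPM in TPM, 0 and 16.2 in TPMCa, 10.7 and 6.5 in TPMR1 and 247 and 186 in TPK, with 0 counts in TPMCa replicate 1, and it was called in no comparison. The table has a close copy of it, Oas1g, and reads may be shared between them. Oas2 was called only in TPK against the mean of TPMCa and TPMR1.

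Mx1 and Mx2 are dynamin-like GTPases that trap viral nucleoproteins, and the guanylate-binding proteins attack the vacuoles of intracellular microbes. Mx1 (chr16:97447035-97462907) stood at 90.1 and 68.9 CPM in TPM, 1.65 and 5.01 in TPMCa, 3.87 and 0.556 in TPMR1 and 136 and 211 in TPK. TPMR1 replicate 2 held 0.556 CPM, or 10 counts. The difference from TPM was -4.57 ± 0.95 in TPMCa (adjusted p = 0.0547) and -5.14 ± 0.97 in TPMR1 (adjusted p = 0.034), the largest of any member in TPMR1 at 35.2-fold. Mx2 is annotated as a polymorphic pseudogene, and it stood at 30.3 and 22.7 CPM in TPM, 2.22 and 3.45 in TPMCa, 16.8 and 2.11 in TPMR1 and 40.2 and 45.4 in TPK. TPMR1 replicate 1 was several times above replicate 2. The guanylate-binding genes lie together on chromosome 3. Gbp2 stood at 49.9 and 49.2 CPM in TPM, 5.89 and 14.6 in TPMCa, 9.64 and 13 in TPMR1 and 113 and 106 in TPK. It differed from TPM by -2.27 ± 0.45 in TPMCa (adjusted p = 0.0478) and -2.13 ± 0.45 in TPMR1 (adjusted p = 0.0441). Gbp3 (43.2 and 75.4 CPM in TPM, 5.26 and 13.1 in TPMCa, 15.4 and 7.95 in TPMR1 and 79.5 and 115 in TPK) had fitted values of -2.69 and -2.34, neither called. Gbp5, the member with the lowest level per length in every model, stood at 7.04 and 13.2 CPM in TPM, 1.27 and 6.79 in TPMCa, 1.66 and 1.11 in TPMR1 and 17.4 and 15.4 in TPK. Neither Gbp5 nor Gbp7 was called against TPM. Of the 6 genes, 5 rose in TPK against the mean of TPMCa and TPMR1, the exception being Gbp7 (adjusted p = 0.0509).

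**Figure D3:**
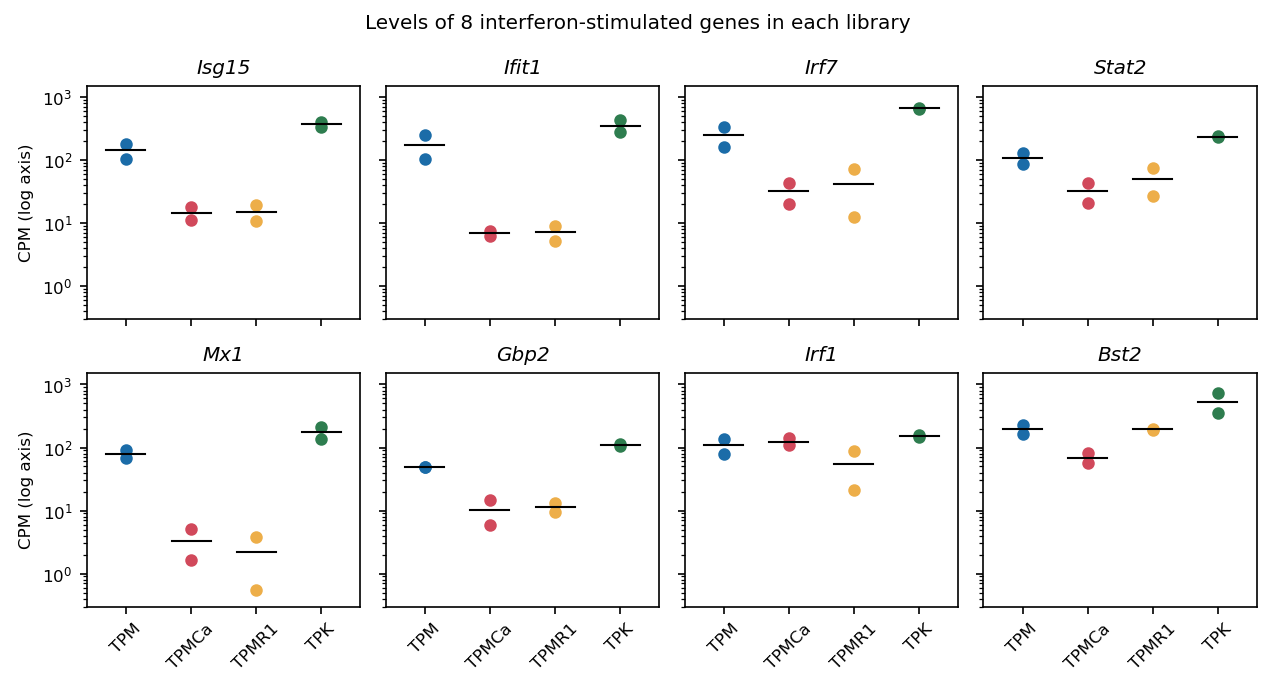
CPM on a shared log axis of 8 interferon-stimulated genes, with 1 point per library, 2 libraries per model and a bar at their mean. Isg15, Ifit1, Irf7, Stat2, Mx1 and Gbp2 are lower in both TPMCa and both TPMR1 libraries than in any TPM or TPK library, whereas Irf1 in TPM overlaps with TPMCa and TPMR1 and Bst2 in TPMR1 lies at the level of TPM.

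Cytoplasmic sensors detect RNA or left-handed nucleic acid and start the interferon response. Ddx58, which encodes RIG-I, stood at 113 and 96.2 CPM in TPM, 13.9 and 30.3 in TPMCa, 48.3 and 20.5 in TPMR1 and 180.3 and 252 in TPK. Ifih1, which encodes MDA5, stood at 56.9 and 55.6 CPM in TPM, 9.63 and 18.1 in TPMCa, 23.3 and 9.95 in TPMR1 and 78.5 and 126 in TPK. Both were lower in each TPMCa and TPMR1 library than in each TPM library, but neither passed the test against TPM (adjusted p between 0.0761 and 0.131). Zbp1, a sensor that can start necroptosis, stood at 43.6 and 51.4 CPM in TPM, 3.67 and 19.4 in TPMCa, 6.54 and 1.5 in TPMR1 and 128 and 159 in TPK, and its fitted difference was -2.04 in TPMCa and -3.55 in TPMR1. Dhx58, which encodes the regulator LGP2, stood at 55.6 and 61.7 CPM in TPM, 6.78 and 19.3 in TPMCa, 144 and 7.67 in TPMR1 and 109.8 and 116 in TPK. TPMR1 replicate 1 was above every other library. Without TPMR1 replicate 1 its difference from TPM changed from 0.37 to -2.93. Eif2ak2, the kinase PKR, had fitted differences of -1.29 and -0.96. Of the 5 sensors, 4 rose in TPK against the mean of TPMCa and TPMR1, and Dhx58 was not called.

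Of the 4 transcription factors, 3 rose in TPK against the mean of TPMCa and TPMR1. Stat2 stood at 128 and 87 CPM in TPM, 20.6 and 43.9 in TPMCa, 74.7 and 27.4 in TPMR1 and 230.3 and 240.0 in TPK. Irf9 stood at 74.2 and 84.1 CPM in TPM, 20.1 and 37.5 in TPMCa, 43.8 and 27.6 in TPMR1 and 169 and 159 in TPK. Irf7, which drives the second wave of interferon production, stood at 337 and 164 CPM in TPM, 20.3 and 44 in TPMCa, 71.7 and 12.5 in TPMR1 and 662 and 658 in TPK. All 3 were lowest in TPMCa or TPMR1, and none was called against TPM, with log2 differences of -1.73, -1.46 and -2.96 in TPMCa and -1.07, -1.15 and -2.57 in TPMR1. Irf7 rose in TPK against the mean of TPMCa and TPMR1 by 4.16 ± 0.69 (adjusted p = 0.0122). Irf1, a factor that also answers interferon gamma and NF-kB, stood at 136 and 80 CPM in TPM, 141 and 108 in TPMCa, 20.9 and 89.2 in TPMR1 and 146 and 158 in TPK. Its TPM libraries overlapped with those of TPMCa and TPMR1, while both TPK libraries lay above all others. Annotated exons of Irf9, Irf7 and Irf1 overlap those of Rnf31, Phrf1 and Gm17334 by 123, 45 and 135 bases, where reads may be shared. Its fitted difference in TPMCa was 0.20 ± 0.63, and it was called in no comparison.

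The ADP-ribosylation genes Parp9 and Dtx3l encode partners in one complex and sit head to head on chromosome 16, and Parp14 lies nearby. Parp9 stood at 116 and 109 CPM in TPM, 9.69 and 30.3 in TPMCa, 24.4 and 14.6 in TPMR1 and 182 and 246 in TPK. Dtx3l stood at 122 and 106 CPM in TPM, 6.9 and 21.2 in TPMCa, 19.6 and 12.1 in TPMR1 and 128 and 256 in TPK. Their annotated exons overlap by 458 bases on opposite strands, and reads there cannot be assigned to one gene without strand. Dtx3l differed from TPM by -3.01 ± 0.62 in TPMCa (adjusted p = 0.0542) and -2.84 ± 0.62 in TPMR1 (adjusted p = 0.0496). Parp9 came close to the threshold in TPMR1, at -2.53 ± 0.56 (adjusted p = 0.0531). Parp14 (174 and 143 CPM in TPM, 9.69 and 53.9 in TPMCa, 17.1 and 16.1 in TPMR1 and 255 and 399 in TPK) had fitted values of -2.32 and -3.26. All 3 rose in TPK against the mean of TPMCa and TPMR1.

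Among the remaining effectors, Rtp4, a chaperone that also restrains flavivirus replication, stood at 104 and 95.1 CPM in TPM, 5.83 and 18.6 in TPMCa, 11.7 and 6 in TPMR1 and 166 and 185 in TPK. It fell in both models, with log2 differences of -3.03 ± 0.59 in TPMCa (adjusted p = 0.0476) and -3.49 ± 0.61 in TPMR1 (adjusted p = 0.0279). Ifi35 (81 and 91.2 CPM in TPM, 7.16 and 20.9 in TPMCa, 31.2 and 15.7 in TPMR1 and 167 and 178 in TPK), Ifi44 (97.6 and 63 CPM in TPM, 3.67 and 16.9 in TPMCa, 15.5 and 6.73 in TPMR1 and 169 and 228 in TPK) and the apoptosis-linked Xaf1 (40.8 and 40.1 CPM in TPM, 4.05 and 10 in TPMCa, 14.7 and 4.61 in TPMR1 and 79.3 and 81.7 in TPK) had no overlap between TPM and the TPMCa or TPMR1 libraries and no call against TPM. Rsad2 (viperin) and its neighbor Cmpk2 on chromosome 12 had fitted differences of -2.43 and -3.21 in TPMCa and of -1.43 and -1.86 in TPMR1. Bst2 (tetherin), which holds budding virus at the cell surface, stood at 166 and 229 CPM in TPM, 55.8 and 81.6 in TPMCa, 199 and 191 in TPMR1 and 723 and 350.0 in TPK. Its TPMR1 libraries lay within the range of TPM, with a difference of -0.02 ± 0.41, whereas the difference in TPMCa was -1.52 ± 0.41 and not called (adjusted p = 0.1). All 7 of these effectors rose in TPK against the mean of TPMCa and TPMR1.

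Per length of annotated exon sequence, the order of the members also shifted between models. Bst2 had the highest level in each, at 219 ± 49.9 CPM per kilobase in TPM, 76.1 ± 20.2 in TPMCa, 216 ± 6.61 in TPMR1 and 594 ± 292 in TPK (mean ± SD, n = 2 libraries). Isg15 came next in TPM and TPK, at 190.0 ± 71.9 and 493 ± 60.2 CPM per kilobase, and ranked 4 in TPMCa and TPMR1, at 19.1 ± 6.34 and 20.2 ± 8.22. Ifit3 ranked 3 in TPM and TPK, 17 in TPMCa and 23 in TPMR1. In the other direction, Irf1 ranked 14 in TPM and 2 in TPMCa, at 27.2 ± 9.97 and 31.3 ± 5.91 CPM per kilobase. With 2 libraries per model, neighbors in these orders often lay within each other's SD.

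TPK against the mean of TPMCa and TPMR1 gave the most calls. There, 33 of the 37 members rose in edgeR and none fell, nor was any lower at an unadjusted p under 0.05 or in DESeq2, against 10.3% of all genes that rose and 4.06% that fell, with a median log2 difference of 3.28 and a range from 0.88 to 6.0. At the study's thresholds 35 were higher, against 15.5% of all genes. The 4 members not called were Dhx58, Irf1, Oas1a and Gbp7. With all libraries 14.4% of all genes were called in either direction. Without TPK replicate 2 the count was 13 members and 3.23% of all genes, and without TPK replicate 1 it was 20 members and 5.1%. The 12 members called in every fit that leaves out 1 library were Irf9, Isg15, Ifit1, Ifit3, Oas3, Oasl1, Mx1, Gbp2, Parp9, Dtx3l, Rtp4 and Ifi35, and the direction was the same for all 37. In the test of any difference between the 4 models, 21 members were called, against 7.32% of all genes, with Ifit1 (adjusted p = 0.0062) and Isg15 (adjusted p = 0.00711) first. That count ranged from 3 members and 1.01% of all genes without TPK replicate 2 to 33 members and 19.1% without TPMR1 replicate 2. With a replicate block it was 7 members and 3.97%.

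TPK and TPM differed less. The fitted difference was above 0 for all 37 members, with a median of 1.0 on the log2 scale and a range from 0.20 to 1.82, against 0.01 over all genes. For 32 of the 37 both TPK libraries lay above both TPM libraries, against 24.4% of all genes. No member was called by edgeR or DESeq2, and edgeR called 0% of all genes higher and 0% lower. At an unadjusted p under 0.05 there were 4 members, Irf9, Isg15, Gbp2 and Bst2, all higher in TPK with a log2 difference beyond 1, against 2.32% of all genes. The largest fitted differences were 1.82 ± 1.5 for Oas1a, 1.59 ± 0.86 for Zbp1 and 1.51 ± 0.78 for Ifit3. For 35 of the 37 the sign held in every fit that leaves out 1 library.

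Between TPMR1 and TPMCa no member was called by edgeR, which called 0% of all genes higher and 0% lower. DESeq2 called 1 of the 37, and 4.86% of all genes. At an unadjusted p under 0.05, Bst2 alone was higher in TPMR1, by 1.5 ± 0.41 on the log2 scale (adjusted p = 0.376), against 4.64% of all genes at that p with a log2 difference beyond 1. The median difference of 0.26 turned to -0.42 without TPMR1 replicate 1 and to -0.19 without TPMCa replicate 1. Dhx58 (2.54 ± 1.17), Mx2 (1.74 ± 0.86) and Gbp5 (-1.53 ± 0.82) had the largest fitted differences. Each of these turned sign when 1 library was left out, Dhx58 and Mx2 without TPMR1 replicate 1 and Gbp5 without TPMCa replicate 2.

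The 2 libraries of TPMCa, and those of TPMR1, were unlike in these genes. TPMCa replicate 2 was above replicate 1 for 34 of the 37 members, by a median of 1.30 on the log2 CPM scale, or 2.47-fold. TPMR1 replicate 1 was above replicate 2 for 33 members, by 1.98-fold. The medians within TPM and TPK were 1.15-fold and 1.12-fold. Members over 2-fold apart numbered 25 in TPMCa and 19 in TPMR1, against 4 in TPM and 2 in TPK. The share of all genes as far apart was 24.8% in TPMCa, 37.1% in TPMR1, 17.0% in TPM and 19.1% in TPK.

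**Figure D4:**
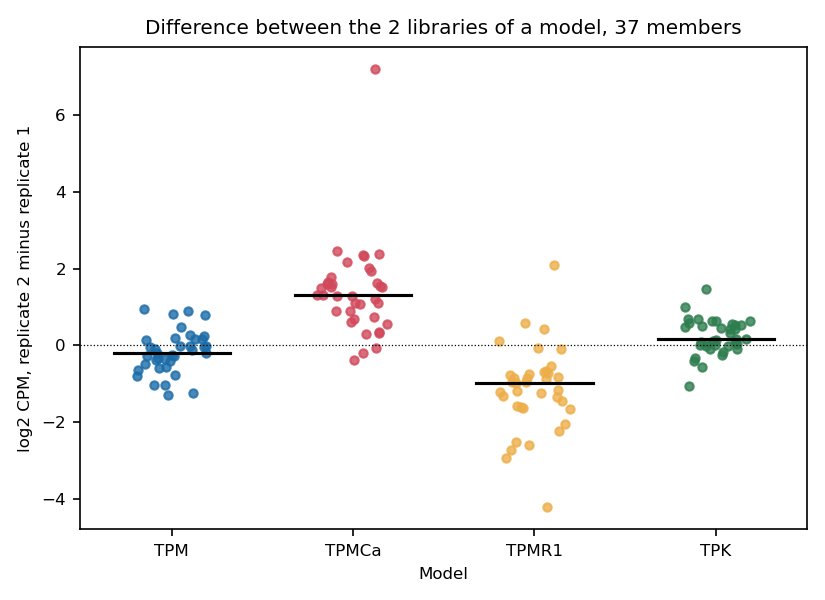
Difference in log2 CPM between replicate 2 and replicate 1 of each model for the 37 interferon-stimulated genes (1 point per gene, spread sideways at random, bar at the median). TPMCa lies mostly above 0 with a median of 1.30 and Oas1a at 7.20, TPMR1 mostly below 0 with Dhx58 at -4.21, and TPM and TPK lie around 0.

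Interferon ligands were at or near the detection limit. None of the 21 ligand genes listed had enough counts to be tested, and together they made between 0.167 and 1.66 CPM per library. The floor of 3 counts corresponded to between 0.116 and 0.198 CPM, for counting error only. Ifnb1 had at most 4 counts in any library. Ifne, the interferon of the uterine epithelium, had 3 and 13 counts in TPM, 8 and 6 in TPK, and 0 in each TPMCa and TPMR1 library, which allows up to 0.116 to 0.19 CPM. Ifng had 19 counts in TPMCa replicate 2 and at most 2 elsewhere. Ifnl2 and Ifnl3, the type III interferons of mice, had at most 6 counts, and Ifnz at most 7. Ifna5, Ifna13, Ifna16, Ifnab and Ifnk had between 0 and 4, and the other listed interferon alpha genes had 0 in all libraries.

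Of 10 receptor and JAK-STAT genes, 1 fell in TPMCa and 2 in TPMR1, against 3.02% and 4.5% of all genes that fell. Ifnlr1, the receptor chain specific to type III interferon, stood at 19.7 and 20.9 CPM in TPM, 2.41 and 1.61 in TPMCa, 1.39 and 1.83 in TPMR1 and 18.5 and 21.7 in TPK. All 4 low libraries were far below all 4 high ones. The difference from TPM was -3.33 ± 0.45 in TPMCa (adjusted p = 0.0181) and -3.65 ± 0.46 in TPMR1 (adjusted p = 0.0121). The type I receptor genes Ifnar1 and Ifnar2 were not called, with fitted differences between -0.13 and 0.60. Ifngr2, a chain of the interferon gamma receptor, fell in TPMR1 by 1.53 (adjusted p = 0.0482). In TPK against the mean of TPMCa and TPMR1, Ifnlr1, Ifngr1, Ifngr2 and Jak2 rose, against 10.3% of all genes.

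Genes of sensing and induction were mixed. Of 15 tested, 1 rose in TPMCa and 1 fell in TPMR1. Of all genes, 0.466% rose in TPMCa and 4.5% fell in TPMR1. Tmem173, which encodes the DNA-sensing adaptor STING, fell in TPMR1 by 2.91 (adjusted p = 0.0357), from 84.4 and 107 CPM in TPM to 7.12 and 18.5. Tlr7, an endosomal RNA sensor of immune cells, rose in TPMCa by 3.22 (adjusted p = 0.0499). Its level was 3.37 and 2.75 CPM in TPM and 16.5 and 40.5 in TPMCa. Macrophage markers were highest in TPMCa replicate 2. TPK replicate 1 had the next highest macrophage sum and held Tlr7 at 6.52 CPM. The part of macrophages in this rise was not tested. Tlr3 and Tmem173 rose in TPK against the mean of TPMCa and TPMR1, where 10.3% of all genes rose. Of 8 genes that restrain interferon signaling, Adar and Samhd1 rose in TPK against that mean. Over the remaining interferon-stimulated genes, 60 in the table, 5 fell in TPMCa, 7 in TPMR1, and 44 rose in TPK against the mean of TPMCa and TPMR1. The shares of all genes were 3.02%, 4.5% and 10.3%. Those that fell in TPMCa were Ifit3b, Ifit1bl1, Ifitm3, Ly6e and Phf11d, and those in TPMR1 were Ifit3b, Ifit1bl1, Ifitm3, Isg20, Ddx60, Znfx1 and Phf11d. Ifitm3, which blocks viral entry, stood at 929 and 750.3 CPM in TPM, 179 and 171 in TPMCa, 74.1 and 170.1 in TPMR1 and 1787 and 1620.3 in TPK.

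Immune marker sums did not split between the same models as the interferon-stimulated genes. The 10 macrophage markers summed to 1042 and 516 CPM in TPM, 1211 and 5151 in TPMCa, 371 and 788 in TPMR1 and 3209 and 1828 in TPK. Both TPK libraries lay above both TPM libraries in this sum, as they did for the interferon-stimulated genes. The same held for lymphocyte markers, at 29.4 and 9.30 CPM in TPK and 4.33 and 3.55 in TPM. The neutrophil and plasmacytoid dendritic cell sums of TPK and TPM overlapped. TPMCa replicate 2 had the highest macrophage level and a low level of interferon-stimulated genes. It also had the highest sum of 10 lymphocyte markers, 162 CPM against 1.32 to 29.4 elsewhere. Within TPMCa the interferon-stimulated genes were higher in this replicate, and within TPMR1 they were higher in replicate 1, where macrophage, neutrophil, lymphocyte and fibroblast markers were lowest. The 3 markers of plasmacytoid dendritic cells, the main source of type I interferon in blood, summed to between 0.723 and 12.4 CPM. The highest sum, in TPK replicate 2, was almost all Cox6a2, at 11.8 CPM. Siglech and Ccr9 stood at 0.264 and 0.330 CPM in that library. The 8 neutrophil markers ranged from 17.2 to 2570 CPM and the 6 endothelial markers from 58.4 to 603 CPM, and neither sum split between the same models. Of the 4 uterine gland markers, Pax8 and Foxa2 did split, Pax8 with 6.57 to 44.0 CPM in TPM and TPK and at most 0.317 in TPMCa and TPMR1, and Foxa2 with 5.60 to 41.8 and at most 0.253. Esr1 and Pgr overlapped between the models, and the sum of the 4 ranged from 20.3 to 238 CPM. The part of these cells in the differences was not tested.

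**Figure D5:**
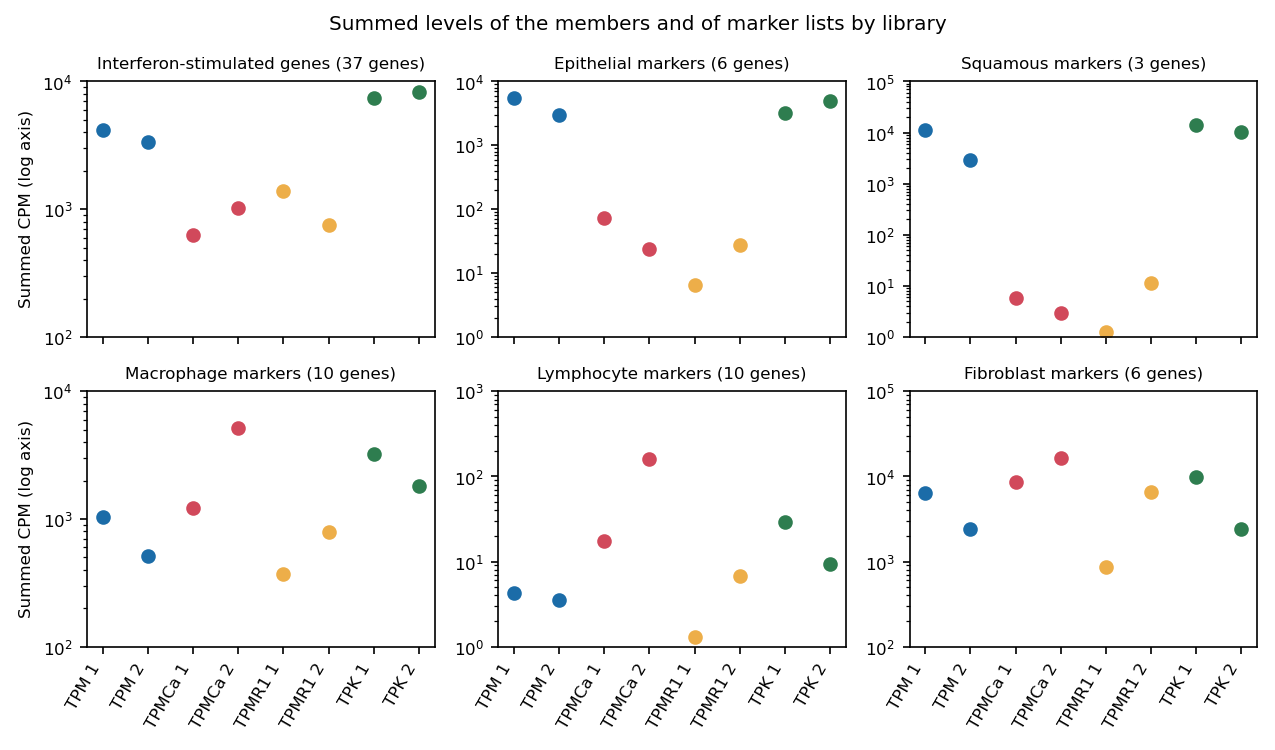
Summed CPM per library (log axes, each panel with its own range) of the 37 interferon-stimulated genes and of 5 marker lists, with 1 point per library. The interferon-stimulated genes and the epithelial and squamous markers are high in TPM and TPK and low in TPMCa and TPMR1, whereas macrophage, lymphocyte and fibroblast markers overlap between the models and are highest in TPMCa replicate 2.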

How the data were processed

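PolyA RNA of 4 mouse tumor models was sequenced in bulk, 2 libraries to a model. Sample labels gave the model and the replicate number. The authors deposited counts, whole numbers of reads per gene symbol, after aligning to mm10 with STAR according to the submitters' processing notes. The counter, its annotation and whether it used strand are not given in the sources used here. A table normalized with DESeq2 by the authors was not used. Column headings give TPM as TPMS.

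Counts were scaled by TMM in edgeR 4.0.16 under R 4.3.3, and filterByExpr left 15875 genes. One quasi-likelihood fit over all 8 libraries (15748396 to 26943611 counts each) had a term for the model (common dispersion 0.269), p-values were adjusted over all genes by the Benjamini-Hochberg method, and log2 CPM used a prior count of 2. 5 comparisons were made, TPMCa, TPMR1 and TPK against TPM, TPMR1 against TPMCa, and TPK against the mean of TPMCa and TPMR1, with a test of any difference. The spread was pooled over the 4 models, and p-values measure only the spread between these libraries. The members and gene lists were chosen with earlier results of these data known. Named genes were up to 20 members called in any test in order of p, 8 set genes and the 3 largest differences of each comparison. Other members were named after their values were seen. Role groups, ligands, receptors, induction, brakes, other interferon-stimulated genes and marker lists are given by counts or sums. Exon lengths came from GENCODE M21 on GRCm38, the same build as mm10, and promoter windows from RefSeq. Alternatives used DESeq2 1.42.0, other scalings and filters, only the models compared, a replicate block and leaving out each library. The fit was tested on simulated data.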

Additional observations from a re-analysis of the deposited data

How the results depend on the processing

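Medians of the 37 members kept their sign in every fit apart from TPMR1 against TPMCa. Leaving out 1 library gave medians from -3.53 to -2.00 in TPMCa against TPM, -3.11 to -1.94 in TPMR1 against TPM, 0.79 to 1.15 in TPK against TPM, 3.03 to 3.68 in TPK against the mean of TPMCa and TPMR1, and -0.42 to 1.05 in TPMR1 against TPMCa, where it turned to -0.19 without TPMCa replicate 1 and to -0.42 without TPMR1 replicate 1.

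Counts of calls moved more, and are given with the share of all genes called in either direction. TPMCa against TPM had 6 calls (3.48% of all genes), and 28 with DESeq2 (16.1%), 14 with all genes of at least 1 count (3.76%), 16 with only the models compared (8.35%), 31 at the study's thresholds (18.9%) and 0 to 27 with 1 library left out (0.226% to 9.86%). It had 1 without TPM replicate 1, TPMCa replicate 2 or either TPK library, 3 without TPM replicate 2, 0 without TPMCa replicate 1, and 27 and 25 without TPMR1 replicates 1 and 2. TPMR1 against TPM had 9 (5.58%), and 26 with DESeq2 (17.5%), 0 with only the models compared (0.353%) and 27 at the study's thresholds (20.1%). Its count also moved with 1 library left out, as given above. TPMR1 against TPMCa had 0 (0%), and 1 with DESeq2 (4.86%), 1 at the study's thresholds (10.5%) and 0 to 3, the 3 without TPMR1 replicate 2 (8.24%). TPK against TPM had 0 (0%), 4 at the study's thresholds (5.28%) and 0 in each fit with 1 library left out. TPK against the mean of TPMCa and TPMR1 had 33 (14.4%) and 13 to 35 (3.23% to 18.7%). The test of any difference had 21 (7.32%), 35 with DESeq2 (29.8%) and 3 to 33 (1.01% to 19.1%), with 5 without either TPM library, 12 without TPMCa replicate 1 and 4 without TPK replicate 1. DESeq2 called all 6, 9 and 33 members that edgeR called. Fits of only the models compared hold fewer samples. Other causes were not tested.

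The replicate numbers did not pair the libraries, with correlations of replicate deviations between -0.0687 and -0.00819. With a replicate block the counts were 4 in TPMCa (2.28%) and 4 in TPMR1 (3.51%) against TPM, 30 in TPK against the mean of TPMCa and TPMR1 (10.5%), and 7 for any difference (3.97%).

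Single genes turned sign when 1 library was left out. Irf1 in TPMCa against TPM ranged from -0.13 without TPM replicate 2 to 0.65. In TPMR1 against TPM, Dhx58 ranged from -2.93 without TPMR1 replicate 1 to 1.29, and Bst2 from -0.21 to 0.23 without TPM replicate 2, with 0.012 without TPMR1 replicate 2. In TPMR1 against TPMCa, Dhx58 ranged from -0.76 and Mx2 from -0.42, both without TPMR1 replicate 1, to 3.48 and 2.56, and Gbp5 from -2.31 to 0.13 without TPMCa replicate 2. With library size alone, the median of all genes moved to -0.11 in TPK against TPM and to -0.13 in TPK against the mean of TPMCa and TPMR1, while the members' medians were 0.89 and 3.17.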
